A study of Bos taurus with 12 samples.

Results

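Aquaporins are membrane channels that let water cross a cell membrane along an osmotic gradient, and the members called aquaglyceroporins also pass glycerol. In the uterus they are known for moving water between stroma, glands and lumen, and in several mammals their transcripts follow the ovarian steroids of the cycle. The genes described here are AQP1, AQP3, AQP4, AQP5, AQP7 and AQP11. They were taken as every probe set that the array's annotation gives one of these symbols, which yielded 9 of the 24016 probe sets tested and 6 of the 9155 genes with a name. AQP1 was measured by 3 probe sets, AQP4 by 2 and each of the other genes by 1, and the probe sets of a gene are called S1, S2 or A1 after the end of their identifiers. The family was chosen by an earlier day difference of AQP1 in these same arrays, so that all day differences of the aquaporins below are descriptions and carry no test. The gene lists read beside the aquaporins were also chosen with earlier results of these arrays known. Their limma counts and adjusted p-values below do not allow for that choice and are to be read as descriptions.

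The samples were 12 pools of endometrial RNA from Simmental heifers, each hybridised to 1 Affymetrix bovine array. There were 4 groups of 3 pools, from receptive and from non-receptive endometrium on day 7 and likewise on day 3, where the day is that of the estrous cycle and receptivity was assigned by whether a pregnancy succeeded once an embryo produced in vivo had been transferred. No other treatment is named. The labels state neither the heifers' age, nor how many animals made a pool, nor whether pools of a group came from different animals, so that p-values measure only the spread between pools, which may be technical. Values are log2 signals as deposited, where a step of 1 is a doubling and 0 is the lowest value the file holds, a floor without order. Signals of different probe sets are not on a common scale per transcript and are compared only across pools. Sums over the genes of a list are likewise compared only across pools, and the brightest probe sets weigh most in them.

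Array medians lay between 6.64 and 6.76, and between 257 and 450 probe sets stood at 0 on an array. Markers of uterine epithelium (13 of 15 listed genes measured, none at 0) had a summed log2 signal of 15.08 to 15.34 in receptive and 14.95 to 15.21 in non-receptive pools of day 7, and of 14.99 to 15.24 in receptive and 15.06 to 15.21 in non-receptive pools of day 3. Stromal markers (17 of 18 measured, POSTN at 0 on at least 1 array) summed to 12.05 to 12.78 and 12.32 to 13.33 in receptive and non-receptive pools of day 7, against 13.82 to 13.93 and 12.61 to 14.84 in receptive and non-receptive pools of day 3. Of the stromal markers 6 fell and 0 rose on day 7 in limma, of 12 neutrophil markers (18 listed) 5 rose and 0 fell, and of 11 smooth muscle and pericyte markers (14 listed) 1 rose and 2 fell. Beside these counts, 4.76% of all probe sets rose and 9.44% fell. Here and for the lists below, a list gene is read by its brightest probe set, whereas these shares include probe sets of low signal. When only the 18782 probe sets with a signal of at least 5 on at least 3 arrays were tested, 1386 rose and 2732 fell. Neutrophil markers (CAMP, MMP9 and ITGAM at 0 on at least 1 array) summed to 14.19 to 14.84 over the pools of day 7 and to 13.90 to 14.05 over those of day 3, but the brightest of them, LTF, averaged 13.90 on day 7 and 13.91 on day 3 and fills most of the sum. S100A12 averaged 11.88 ± 0.73 on day 7 and 8.18 ± 1.11 on day 3 (limma adjusted p = 0.0039), and S100A8 averaged 10.59 ± 1.11 on day 7 and 7.26 ± 0.92 on day 3 (limma adjusted p = 0.00591). In pooled tissue, fewer cells of a type and less RNA per cell cannot be told apart, and the part of tissue makeup in the aquaporin differences was not tested.

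AQP4 gave the most even picture of the day difference. It is a water channel of basolateral epithelial membranes, best known from the astrocyte end feet of the brain. Its probe set S2 had signals of 11.27, 11.84 and 12.04 in the receptive and 11.72, 12.52 and 11.36 in the non-receptive pools of day 7. On day 3 it had 8.80, 10.86 and 10.62 in the receptive and 10.13, 9.88 and 10.99 in the non-receptive pools. Every pool of day 7 lay above every pool of day 3, and within a day the receptivity groups overlapped. Mean signals were 11.79 ± 0.46 on day 7 and 10.21 ± 0.81 on day 3 (SD, n = 6 pools each), a difference of 1.58 (SE 0.38) or 2.99-fold. The difference was 1.62 in receptive and 1.53 in non-receptive endometrium.

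The other AQP4 probe set, S1, followed the same pools. It had 10.52, 11.15 and 11.36 in receptive and 11, 11.97 and 10.87 in non-receptive pools of day 7. On day 3 its signals were 7.90, 10.29 and 9.81 in receptive and 9.45, 9.31 and 10.40 in non-receptive pools. Again both days were separate, with means of 11.15 ± 0.49 on day 7 and 9.53 ± 0.91 on day 3 (SD, n = 6 each) and a difference of 1.62 (SE 0.41), or 3.07-fold. The gap between both probe sets, S2 minus S1, stayed between 0.49 and 0.90 over the 12 pools, with a median of 0.68. They read the RNA of 1 gene on the same arrays and are no replicates of each other. For both, group means were highest in non-receptive and next in receptive endometrium of day 7, then in non-receptive and last in receptive endometrium of day 3, and the only neighbours in that order without overlap were receptive day 7 and non-receptive day 3.

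**Figure D1:**
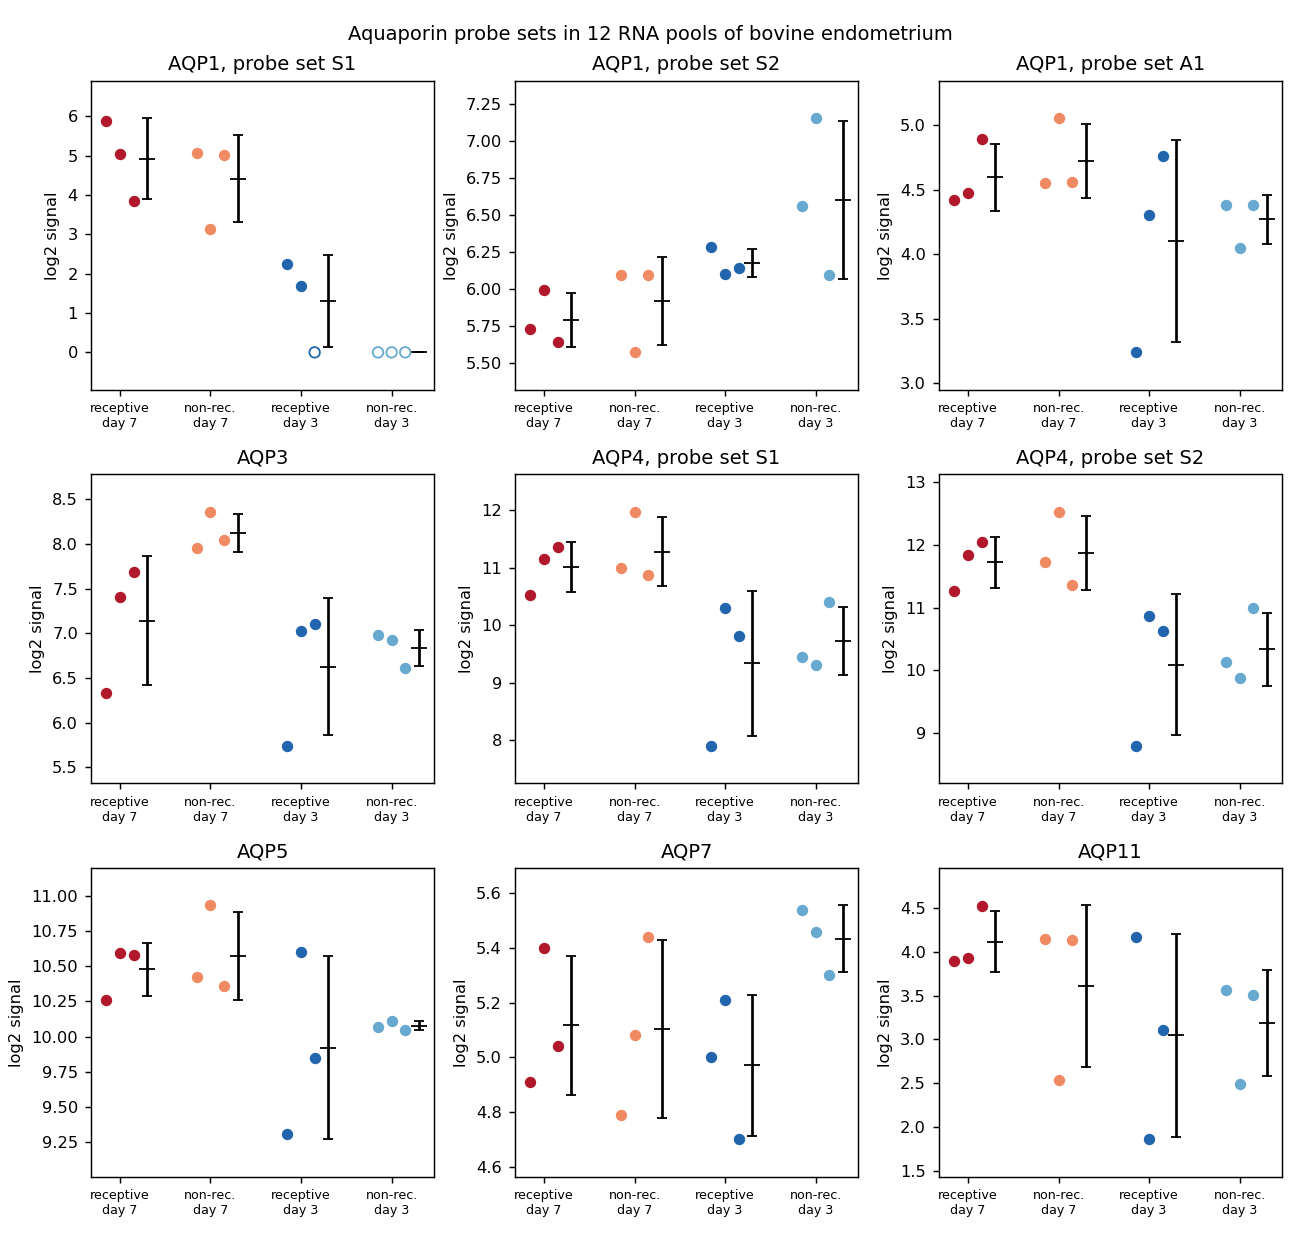
Log2 signal (y axis) of the 9 aquaporin probe sets in the receptive and non-receptive pools of day 7 and day 3 (x axis, 3 pools a group). Points are pools, open circles are values of 0, and the bar right of each group is its mean ± SD. Both AQP4 panels and AQP1 S1 show days that do not overlap, AQP1 S2 runs the other way, and receptive day 3 pool 1 is the lowest point of the AQP3, AQP4, AQP5 and AQP1 A1 panels.

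AQP1, the classical water channel of red cells and of capillary endothelium, gave a different answer with each of its 3 probe sets. The S1 probe set had 5.88, 5.05 and 3.84 in receptive and 5.08, 3.14 and 5.02 in non-receptive pools of day 7. On day 3 it had 2.24, 1.68 and 0 in receptive pools whereas its 3 non-receptive pools were all listed at 0. The lowest pool of day 7 (3.14) lay above the highest of day 3 (2.24), and 4 of the 6 day 3 values were at the floor. Means were 4.67 ± 0.99 on day 7 and 0.65 ± 1.03 on day 3 (SD, n = 6 each), and the difference of 4.01 depends on where the floor lies, so that no fold is given. When all values under 4 were set to 4, the difference was 0.84.

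The S2 probe set of AQP1 moved the other way. Its signals were 5.73, 5.99 and 5.64 in receptive and 6.09, 5.57 and 6.09 in non-receptive pools of day 7. They were 6.28, 6.10 and 6.14 in receptive and 6.56, 7.15 and 6.09 in non-receptive pools of day 3. The receptive pools of both days were separate, with the lower signals on day 7, and the non-receptive pools met at a shared value of 6.09. Mean signals were 5.85 ± 0.23 on day 7 and 6.39 ± 0.41 on day 3 (SD, n = 6 each), a difference of -0.54 (SE 0.18), with -0.39 in receptive and -0.68 in non-receptive endometrium.

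The A1 probe set of AQP1, whose identifier belongs to another sequence cluster than that of S1 and S2, stood between both. It had 4.42, 4.47 and 4.89 in receptive and 4.55, 5.05 and 4.56 in non-receptive pools of day 7, and 3.24, 4.30 and 4.76 in receptive and 4.38, 4.05 and 4.38 in non-receptive pools of day 3. The non-receptive pools of day 7 lay above those of day 3, whereas the receptive pools overlapped. Means were 4.66 ± 0.25 on day 7 and 4.18 ± 0.52 on day 3, a difference of 0.47 (SE 0.24). Of the 3 probe sets, S1 and A1 were thus higher and S2 lower on day 7, and which part of the transcript each one reads was not analysed here.

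The cells that AQP1 is known from were represented by marker lists. Endothelial markers (16 of 18 measured, none at 0) had summed log2 signals of 9.38 to 9.68 in receptive and 9.23 to 9.72 in non-receptive pools of day 7, against 10.33 to 10.46 in receptive and 9.58 to 11.16 in non-receptive pools of day 3. On day 7, 4 of the 16 fell and 0 rose in limma, beside 9.44% of all probe sets lower and 4.76% higher, and the differences of 4 of the 16 were positive, with a median of -0.288. The 4 that fell included FLT1, a receptor for VEGF (3.70 ± 0.60 on day 7 and 5.32 ± 0.54 on day 3, limma adjusted p = 0.0139), and EMCN, the sialomucin endomucin (7.71 ± 0.27 on day 7 and 9.41 ± 0.82 on day 3, limma adjusted p = 0.0148). The sums of the receptive pools were separate between the days, with the lower sums on day 7, and those of the non-receptive pools overlapped. Erythroid markers (9 of 15 measured, SLC4A1 at 0 on 4 arrays) summed to 8.81 to 9.15 in receptive and 8.92 to 9.10 in non-receptive pools of day 7, and to 8.86 to 8.90 in receptive and 8.88 to 9.04 in non-receptive pools of day 3. The part of either cell type in the AQP1 values was not tested.

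AQP5, the apical water channel of secretory gland epithelium, had 10.26, 10.59 and 10.58 in receptive and 10.42, 10.93 and 10.36 in non-receptive pools of day 7. On day 3 its signals were 9.31, 10.60 and 9.85 in receptive and 10.07, 10.11 and 10.05 in non-receptive pools. All non-receptive pools of day 7 lay above those of day 3, whereas receptive day 3 pool 2 (10.60) reached above all receptive pools of day 7. Means were 10.52 ± 0.24 on day 7 and 10 ± 0.42 on day 3 (SD, n = 6 each), a difference of 0.52 (SE 0.20) or 1.44-fold, with 0.56 in receptive and 0.49 in non-receptive endometrium. The order of the group means was the one of AQP4, again with no overlap between the neighbours receptive day 7 and non-receptive day 3.

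AQP3 is an aquaglyceroporin of basolateral membranes, found in many epithelia including the epidermis. Its signals were 6.33, 7.41 and 7.69 in receptive and 7.96, 8.36 and 8.05 in non-receptive pools of day 7. They were 5.74, 7.03 and 7.11 in receptive and 6.98, 6.93 and 6.61 in non-receptive pools of day 3. The 3 non-receptive pools of day 7 were the highest of all 12, and the other 3 groups, receptive day 7, non-receptive day 3 and receptive day 3 in the order of their means, overlapped. Means were 7.63 ± 0.72 on day 7 and 6.73 ± 0.52 on day 3 (SD, n = 6 each), a difference of 0.90 (SE 0.29) that came to 0.52 in receptive and 1.28 in non-receptive endometrium. Both day differences differed by -0.77 (95% confidence interval -2.06 to 0.52, limma adjusted p = 0.999).

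AQP7, the glycerol channel of adipocytes, is the neighbour of AQP3 in the bovine gene order. It had 4.91, 5.40 and 5.04 in receptive and 4.79, 5.08 and 5.44 in non-receptive pools of day 7, and 5, 5.21 and 4.70 in receptive and 5.54, 5.46 and 5.30 in non-receptive pools of day 3. Means were 5.11 ± 0.26 on day 7 and 5.20 ± 0.31 on day 3 (SD, n = 6 each), a difference of -0.09 (SE 0.14), with 0.15 in receptive and -0.33 in non-receptive endometrium. All 12 pools lay between 4.70 and 5.54 and both days overlapped. Non-receptive day 3 had the highest group mean and receptive day 3 the lowest, and neighbours in the order of the means overlapped. Adipocyte markers (8 of 9 measured, PPARG at 0 on 1 array) summed to 9.03 to 9.23 in receptive and 8.90 to 9.37 in non-receptive pools of day 7, and to 8.71 to 9.08 in receptive and 9.12 to 9.30 in non-receptive pools of day 3.

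AQP11, a channel of intracellular membranes in the endoplasmic reticulum, had 3.90, 3.93 and 4.52 in receptive and 4.15, 2.54 and 4.13 in non-receptive pools of day 7, against 4.17, 1.86 and 3.11 in receptive and 3.56, 2.49 and 3.51 in non-receptive pools of day 3. The neighbours in the order of the group means overlapped, and the only groups without overlap were receptive day 7 and non-receptive day 3. Means were 3.86 ± 0.68 on day 7 and 3.12 ± 0.83 on day 3 (SD, n = 6 each), a difference of 0.75 (SE 0.43). Of the other aquaporin genes listed, only MIP, the lens aquaporin, was matched to a probe set, and it averaged 4.98 ± 0.31 on day 7 and 4.99 ± 0.20 on day 3.

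Over the 9 probe sets, the median day difference was 0.75, against -0.05 over all 24016 probe sets, and 7 of the 9 differences were positive. This comparison chose the family, so that the counts that follow describe it and nothing is read from them. In the linear model, 3 of 9 probe sets (AQP1 S1 and both of AQP4) lay under the threshold of 0.05 in the averaged day comparison, all higher on day 7, beside 14.2% of all probe sets, of which 4.76% were higher and 9.44% lower. Quantile normalization turned this split of 1144 higher and 2268 lower probe sets into 1430 higher and 1814 lower, and centring each array on its median into 1601 higher and 1562 lower, and under both 4 of the 9 aquaporin probe sets lay under the threshold, all higher. The same 3 of 9 had no overlap between the 6 pools of day 7 and the 6 of day 3, where 7.72% of all probe sets had none (2.55% with day 7 higher). Within receptive endometrium 4 of 9 (3 higher and 1 lower on day 7) and within non-receptive endometrium 6 of 9 (all higher) did not overlap between the days, beside 25.2% (8.72% higher and 16.5% lower) and 25.9% (10.3% higher) of all probe sets. A log2 signal of at least 5 on at least 3 arrays was reached by 7 of the 9 probe sets, not by AQP11 and AQP1 A1, and AQP1 S1 reached it only through pools of day 7. The count of 3 was 1 when pool 3 of receptive day 7, pool 1 of non-receptive day 3 or pool 2 of the same group was left out.

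**Figure D2:**
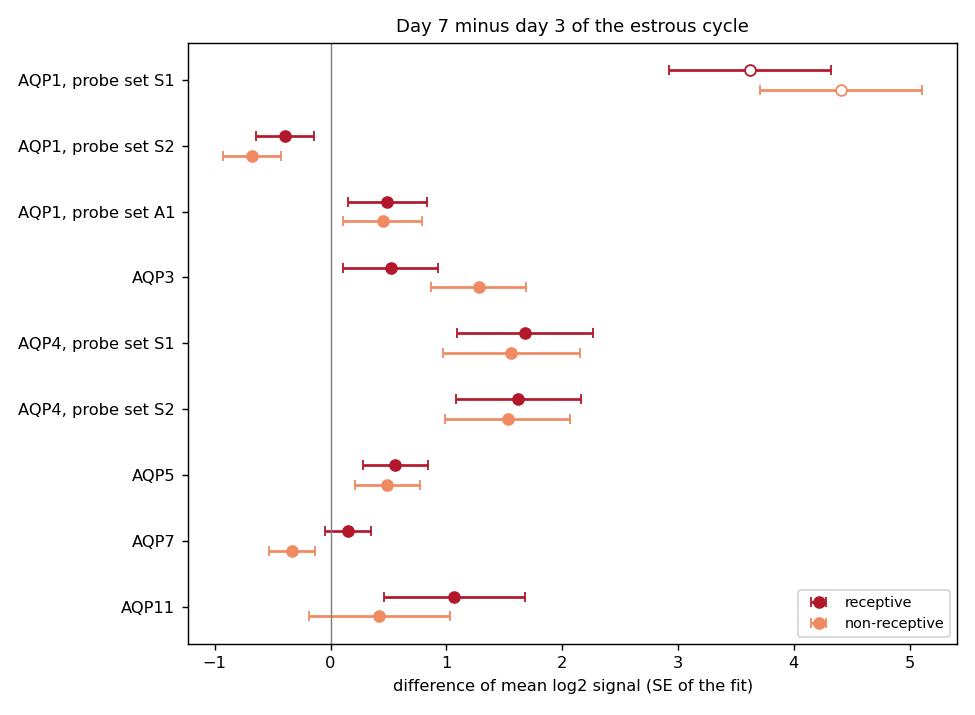
Difference of mean log2 signal between day 7 and day 3 (x axis, positive is higher on day 7) for each aquaporin probe set (rows), in receptive and in non-receptive endometrium. Bars are the SE of the fit and open symbols mark AQP1 S1, which rests on values at the floor. Both AQP4 probe sets lie between 1.53 and 1.68, and AQP1 S2 lies left of 0 in both groups.

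The comparison of receptive with non-receptive endometrium asked whether channel transcripts differed with pregnancy outcome, and here tests apply. The gap between the 3′ and 5′ control probe sets of actin, given further down, also differed between these groups on each day. Its part in the differences was not tested. On day 7 limma passed 0 of the 9 probe sets (background 0%, 0 of 24016), and 1 of 9 had an unadjusted p under 0.05, beside 5.81% of all probe sets. That probe set was AQP3, with 7.14 ± 0.72 in receptive and 8.12 ± 0.21 in non-receptive pools (SD, n = 3 each). The difference was -0.98 (SE 0.41, 95% confidence interval -1.89 to -0.07, limma adjusted p = 0.821). Every receptive pool lay below every non-receptive pool, which held for 1 of the 9 aquaporin probe sets and for 9.23% of all (5.23% with the receptive pools lower). Without receptive day 7 pool 1, the lowest, the AQP3 difference was -0.57.

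AQP3 is abundant in stratified epithelium, and markers of squamous epithelium (7 of 18 measured, DSC3 at 0 on 1 array) had summed log2 signals of 9.56, 11.30 and 10.46 in receptive pools 1, 2 and 3 of day 7 and of 11.06 to 11.53 in the non-receptive pools of that day. On day 3 they summed to 8.57 to 9.12 in receptive and 8.71 to 8.86 in non-receptive pools. Receptive pool 1 had both the lowest AQP3 signal and the lowest squamous sum of day 7. The other receptive pools of day 7 ran the other way, with AQP3 at 7.41 in pool 2 and 7.69 in pool 3. On day 3, receptive pool 1 had the lowest AQP3 signal of all 12 pools (5.74) but the highest squamous sum of that day (9.12). The keratins KRT5 and KRT15 weighed most in the sums of the non-receptive pools of day 7, with means of 10.04 and 10.07. In the receptive pools of that day KRT5 spanned 6.15 to 10.06 and KRT15 7.00 to 9.82, beside 7.28 to 7.96 for KRT17. KRT5 and KRT15 differed by -1.81 and -1.36 between receptive and non-receptive pools of day 7 (limma adjusted p = 0.821 for both). In the same comparison 3 of the 7 markers had positive differences, PKP1 (0.78), KRT4 (0.10) and KRT17 (0.06). Of the 7 markers 4 rose and 0 fell on day 7 against day 3 in limma, beside 4.76% of all probe sets higher and 9.44% lower. Among the 4 were the basal keratins KRT5 (9.14 ± 1.60 on day 7 and 5.72 ± 0.72 on day 3, limma adjusted p = 0.00582) and KRT17 (7.67 ± 0.37 on day 7 and 5.30 ± 0.58 on day 3, limma adjusted p = 0.00224). The part of squamous epithelium in the AQP3 values was not tested.

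The remaining aquaporins gave day 7 differences between -0.27 for AQP4 S1 (95% confidence interval -1.58 to 1.04) and 0.51 for AQP1 S1 and AQP11 (-1.06 to 2.08 for AQP1 S1 and -0.84 to 1.86 for AQP11). For AQP4 S2 the difference was -0.15 (-1.36 to 1.06), for AQP5 it was -0.09 (-0.73 to 0.54) and for AQP7 it was 0.01 (-0.43 to 0.46). Adjusted p-values of the 9 probe sets lay between 0.821 and 0.996. The intervals of both AQP4 probe sets include a doubling and a halving of the signal, whereas those of AQP5, AQP7 and AQP1 S2 (-0.69 to 0.43) include neither.

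On day 3 limma again passed 0 of 9 (background 0.0125%, 3 of 24016), and 1 of 9 had an unadjusted p under 0.05, beside 5.26% of all probe sets. This was AQP7, with 4.97 ± 0.26 in receptive and 5.43 ± 0.12 in non-receptive pools (SD, n = 3 each), a difference of -0.46 (SE 0.20, 95% confidence interval -0.91 to -0.02, limma adjusted p = 0.936). Its pools did not overlap, which held for 1 of 9 aquaporin probe sets and for 10.8% of all (6.24% with the receptive pools lower). Of the 9 differences 8 were negative, with a median of -0.21, against -0.0133 over all probe sets. AQP1 S1 was the exception, with a difference of 1.31 (-0.26 to 2.88) between receptive pools at 2.24, 1.68 and 0 and non-receptive pools that were all listed at 0. Of the 8 negative differences, those of AQP3, AQP5, AQP1 A1 and both AQP4 probe sets turned positive without receptive day 3 pool 1, as given further down. Adjusted p-values ranged between 0.936 and 0.988.

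**Figure D3:**
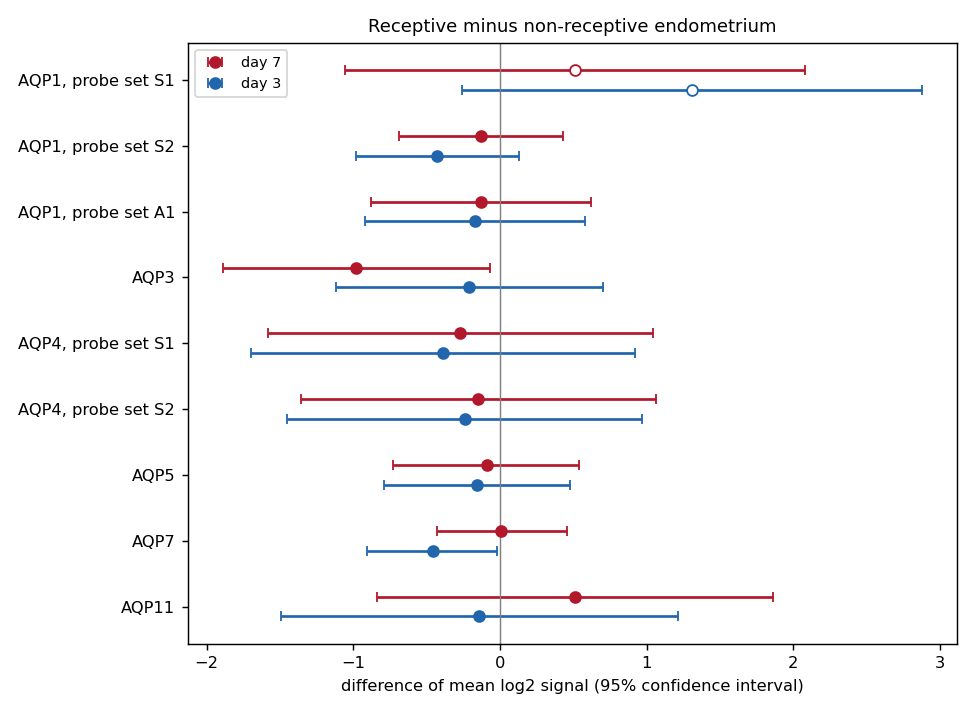
Difference of mean log2 signal between receptive and non-receptive endometrium (x axis, positive is higher in receptive pools) for each aquaporin probe set (rows) on day 7 and day 3. Bars are 95% confidence intervals of the fit and open symbols mark AQP1 S1. The intervals of AQP3 on day 7 and AQP7 on day 3 leave out 0, and no difference passed after adjustment.

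Averaged over both days, 0 of 9 passed in limma (background 0.00416%, 1 of 24016) and 0 of 9 had an unadjusted p under 0.05, beside 7.38% of all probe sets. The median difference was -0.20 and AQP3 had the smallest adjusted p of the 9 (difference -0.60, 95% confidence interval -1.24 to 0.05, limma adjusted p = 0.679). The test of whether the day difference itself differed between receptive and non-receptive endometrium passed 0 of 9 in limma (background 0%, 0 of 24016), and 0 of 9 had an unadjusted p under 0.05, beside 3.39% of all. For AQP4 S2 the day differences differed by 0.09 (-1.62 to 1.80), for AQP5 by 0.06 (-0.83 to 0.96) and for AQP7 by 0.48 (-0.15 to 1.11).

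A pair of pools set the extremes of most aquaporins. Receptive day 3 pool 1 was the lowest of the 12 pools for 5 of the 9 probe sets, AQP1 A1, AQP3, both AQP4 probe sets and AQP5, and non-receptive day 7 pool 2 was the highest for the same 5. How often these pools were lowest or highest over all probe sets was not counted, so that the extremes are not shown to be particular to aquaporins. The gap between the 3′ and 5′ control probe sets of actin, which widens as RNA is shortened, was 1.25, 0.96 and 0.82 in receptive and 0.45, 0.02 and 0.63 in non-receptive pools of day 7. It was 3.11, 1.05 and 1.80 in receptive and 0.49, 0.48 and 0.93 in non-receptive pools of day 3. On each day the actin gap of every receptive pool was wider than that of every non-receptive pool. The pool with the widest actin gap was therefore the one with the lowest signals of these 5 probe sets, and the pool with the narrowest gap the one with their highest. The corresponding gap of GAPDH did not single out these pools. It was 0.71 in non-receptive day 7 pool 2 and 0.74 in receptive day 3 pool 1, within a range of 0.37 (receptive day 7 pool 3) to 1.04 (receptive day 3 pool 2). The GAPDH gaps of receptive and non-receptive pools overlapped on each day. Without receptive day 3 pool 1, the day 3 differences between receptive and non-receptive endometrium turned positive for AQP3 (0.23), AQP4 S1 (0.33), AQP4 S2 (0.41), AQP5 (0.15) and AQP1 A1 (0.26), none of them past the test. The part of RNA quality in the aquaporin values was not tested.

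**Figure D4:**
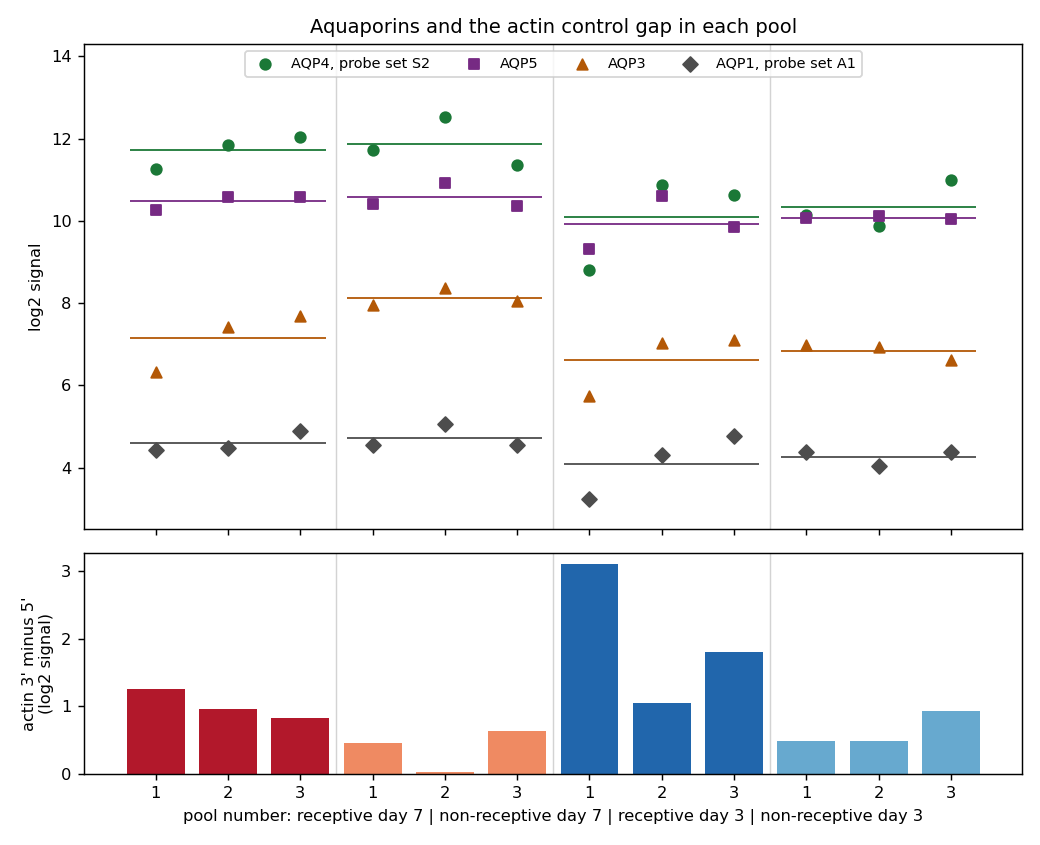
Log2 signal (upper y axis) of AQP4 S2, AQP5, AQP3 and AQP1 A1 in each of the 12 pools (x axis, by group and pool number), with lines at the group means, above the 3′ minus 5′ gap of the actin control probe sets in log2 units (lower y axis). Receptive day 3 pool 1 has the lowest signals and the widest actin gap (3.11), and non-receptive day 7 pool 2 has the highest signals and the narrowest gap (0.02).

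The genes whose signals ran most like those of an aquaporin over the 12 pools were taken from 12516 probe sets with a single gene name and no value at 0. These correlations are descriptions over pools that share arrays, days and RNA quality, so values within each day (6 pools) are given beside them. For AQP4 S2 the nearest was VPS11, a subunit of vesicle tethering complexes (Pearson r = 0.97 over 12 pools, 0.95 within day 7 and 0.93 within day 3). AQP5 ran closest to CD55, a complement regulator of cell surfaces (0.94, with 0.72 within day 7 and 0.94 within day 3), and next to TFF3, a trefoil peptide secreted with mucus (0.938, with 0.92 and 0.92). For AQP3 it was CA5B, a mitochondrial carbonic anhydrase (0.93, with 0.90 and 0.86), followed by SERPINE2, a protease inhibitor, at 0.929. AQP1 S2 ran closest to MFNG, a modifier of Notch receptors (0.926, with 0.72 and 0.95), AQP7 to ARIH1, a ubiquitin ligase (0.946, with 0.92 and 0.99), and AQP11 to RAB25, a GTPase of epithelial recycling endosomes (0.911, with 0.96 and 0.88). For AQP4 S2 the next genes, VWCE and TBC1D10C, held less well within day 7 (0.55 and 0.44) than within day 3 (0.96 for both).

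Water follows salt across epithelia, and a list of ion and fluid transport genes was therefore read beside the channels. Of 49 listed genes 28 were measured, and on day 7 against day 3 6 rose and 0 fell in limma, beside 4.76% of all probe sets higher and 9.44% lower, with a median difference of 0.172, against -0.05 over all probe sets. NHERF1, a scaffold of apical transporters, averaged 9.51 ± 0.18 on day 7 and 8.70 ± 0.11 on day 3 (difference 0.81, limma adjusted p = 0.00228). FXYD1, a regulator of the sodium pump, averaged 6.41 ± 0.43 on day 7 and 5.37 ± 0.26 on day 3 (difference 1.04, limma adjusted p = 0.0126). The potassium channel gene KCNQ1 averaged 7.91 ± 0.34 on day 7 and 7.11 ± 0.30 on day 3 (difference 0.80, limma adjusted p = 0.0169), and SCNN1B, a subunit of the epithelial sodium channel, differed by 0.72 (limma adjusted p = 0.0278).

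The 2 other genes of the list that rose were named after their values had been seen. CFTR, the apical chloride channel, differed by 0.46 (limma adjusted p = 0.0432), and CLCA1, a secreted regulator of chloride channels, had the widest difference of the list (9.56 ± 0.83 on day 7 and 6.91 ± 1.53 on day 3, difference 2.65, limma adjusted p = 0.0358). Between receptive and non-receptive endometrium 0 of the 28 passed in limma on either day, and 1 of 28 had an unadjusted p under 0.05 on day 7 (5.81% of all probe sets) and 1 of 28 on day 3 (5.26% of all).

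**Figure D5:**
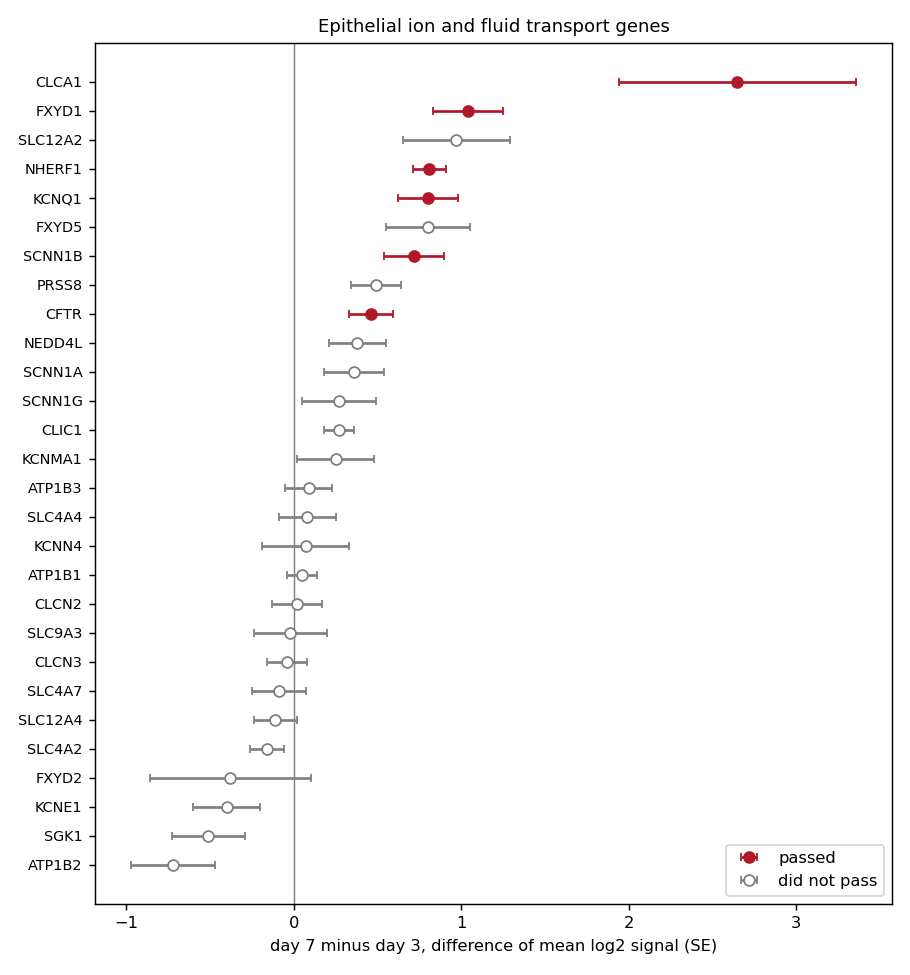
Difference of mean log2 signal between day 7 and day 3 (x axis, positive is higher on day 7), averaged over receptive and non-receptive endometrium, for the 28 measured genes of epithelial ion and fluid transport (rows). Bars are the SE of the fit, and filled points passed at an adjusted p under 0.05. The 6 genes that passed, CLCA1, FXYD1, NHERF1, KCNQ1, SCNN1B and CFTR, were all higher on day 7.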

How the data were processed

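The authors deposited log2 signals for 24128 probe sets on 12 arrays, 1 for each RNA pool. Per the labels, total RNA from TRI Reagent was cleared of DNA with DNaseI, purified with RNeasy and labelled as biotinylated cRNA. PLIER, Affymetrix Expression Console and GCOS 1.1.1 stand in the submitters' processing notes, with neither role nor order, and the sources used here do not give how arrays were scaled. Values (0 to 14.06, 2 decimals) were used as deposited, without filter or further normalization. After 112 control probe sets were set aside, 24016 were tested, of which 1652 held a 0 on at least 1 array. Genes came from the platform annotation, which gave 13292 of the tested probe sets exactly 1 symbol, 86 several and 10638 none, and only the first kind was named.

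All 12 arrays entered 1 limma fit (version 3.58.1 in R 4.3.3, lmFit followed by eBayes) with 4 group means and 8 residual degrees of freedom. A two-sided test was passed when the p of a probe set, adjusted after Benjamini and Hochberg across the 24016, was under 0.05. Pools are few, and the number of arrays limits the precision. The members and the 13 gene lists (226 entries, 156 measured) were chosen with earlier results of these data known. All aquaporin probe sets were named, up to 4 genes of every other list for each comparison by smallest p, and for the brightest probe set of each aquaporin the 3 genes most like it were computed. A gene of a list was read by its probe set with the highest mean signal, and a summed signal is the log2 of the sum of unlogged signals. The fit was tested on simulated data. In 20 alternatives, normalization, filters, the floor, the variance model, the samples fitted and a block for the pool number were varied and each pool was left out once. Figures were drawn with matplotlib 3.10.9.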

Additional observations from a re-analysis of the deposited data

How the results depend on the processing

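None of the 9 aquaporin probe sets passed in any comparison of receptive with non-receptive endometrium, or in the difference between the day changes, under any of the 20 alternatives, where the lowest adjusted p was 0.505. The number of all 24016 probe sets that passed on day 3 was 3, and it was 1 after quantile normalization, 1 after centring on the median, and 0 with the filter on low signals, without probe sets holding a 0, with a trended robust variance and with pool number as a block. On day 7 it was 0, and 1 when only the groups compared were fitted. Averaged over days it was 1, and 0 with the low filter, without probe sets holding a 0, with the trended robust variance and with the pool number as a block. For the difference between the day changes it was 0, and 1 when values under 4 were set to 4. Leaving out 1 pool gave 0 to 5 on day 3, 0 to 2 on day 7, 0 to 3 averaged and 0 to 2 for the difference between the day changes. The cause was not tested.

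For the averaged day comparison, leaving out 1 pool gave 1861 to 3617 probe sets, against 3412 with all pools, with the lowest count when pool 1 of non-receptive day 3 was left out, 2146 without pool 1 of non-receptive day 7, and 2190 without pool 3 of receptive day 3. Aquaporin probe sets past the threshold then numbered 1 to 4, against 3. With the filter on low signals, which tests fewer probe sets, they were 5 of 7, of which 4 were higher and 1 lower on day 7. Beside them, 4118 of the 18782 probe sets under that filter passed, 1386 higher and 2732 lower. AQP1 S1 reached the filter only through pools of day 7. Nothing is read from these counts, since this comparison chose the family. All 9 day differences kept their sign under every alternative that gave a value. Setting values under 4 to 4 turned the receptivity difference on day 3 to 0.0567 for AQP11 and 0.0833 for AQP1 A1, and the difference between the day changes to 0.28 for AQP1 S1 and -0.21 for AQP1 A1. It left AQP1 S1 with no value on day 3, where all its pools then stood at 4.

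The 432 receptivity values with 1 pool left out include day 3 differences without a pool of day 7 and the reverse, which cannot change. Of the 432, 43 turned sign, none past the test. The ranges of these were -0.50 to 0.15 (AQP5), -0.70 to 0.45 (AQP11), -0.46 to 0.23 (AQP3), -0.50 to 0.26 (AQP1 A1), -0.87 to 0.33 (AQP4 S1) and -0.62 to 0.41 (AQP4 S2) on day 3, and -0.13 to 1.05 (AQP1 S1), -0.198 to 0.0867 (AQP5), -0.0233 to 0.782 (AQP11), -0.275 to 0.0383 (AQP1 A1), -0.475 to 0.075 (AQP4 S1), -0.40 to 0.18 (AQP4 S2) and -0.14 to 0.18 (AQP7) on day 7. They were -0.295 to 0.0275 (AQP5), -0.0958 to 0.482 (AQP11), -0.313 to 0.0667 (AQP1 A1), -0.568 to 0.03 (AQP4 S1) and -0.387 to 0.128 (AQP4 S2) averaged over days, and -0.242 to 0.403 (AQP5), -0.387 to 0.373 (AQP1 A1), -0.60 to 0.595 (AQP4 S1) and -0.557 to 0.473 (AQP4 S2) for the difference between the day changes. Deviations of pools of the same number correlated at -0.179 to 0.136 (18 pairs, 3 of them over 0.1). These pairs include receptive against non-receptive pools, whose heifers differ in pregnancy outcome and cannot be the same. Between day 3 and day 7 the correlations were 0.136, 0.0519 and 0.122 for receptive pools 1, 2 and 3. For the non-receptive pools they were 0.0179, 0.0277 and -0.0376. Receptive pools of different number gave -0.149 to 0.0314. Whether the numbers pair pools of both days cannot be told from these values. With the pool number as a block, 3029 of all probe sets passed in the day comparison. Of the aquaporin probe sets 4 lay under the threshold, and nothing is read from this count, since the day comparison chose the family.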

Other observations

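Aquaglyceroporins such as AQP3 and AQP7 also pass glycerol, and genes that make, phosphorylate or release glycerol were read beside them. Of 16 listed genes 13 were measured, and 3 rose and 0 fell on day 7 against day 3 in limma, beside 4.76% of all probe sets higher and 9.44% lower, with a median difference of 0.148, against -0.05 over all probe sets. GK, the glycerol kinase, averaged 5.69 ± 0.38 on day 7 and 3.88 ± 0.54 on day 3 (difference 1.81, limma adjusted p = 0.00266, SD, n = 6 each). ABHD5, a coactivator of triglyceride lipase, differed by 0.74 (limma adjusted p = 0.0219), and PNPLA2, that lipase, by 0.35 (limma adjusted p = 0.0471). Between receptive and non-receptive endometrium 0 of the 13 passed in limma, with an unadjusted p under 0.05 for 0 on day 7 (5.81% of all probe sets) and for 1 on day 3 (5.26% of all).

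Genes that traffic, phosphorylate or anchor aquaporins formed another list. Of 20 listed genes 15 were measured, and 0 rose and 1 fell on day 7, beside the same shares of all probe sets, with a median difference of 0.0583. The gene that fell was PRKACB, a catalytic subunit of protein kinase A, which averaged 6.71 ± 0.21 on day 7 and 7.11 ± 0.10 on day 3 (difference -0.40, limma adjusted p = 0.0352). Between receptive and non-receptive endometrium 0 of the 15 passed in limma, with an unadjusted p under 0.05 for 1 on day 7 (5.81% of all probe sets) and for 0 on day 3 (5.26% of all).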
